A study of Mus musculus with 22 samples.

Results

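Windows of open chromatin that were more accessible in mouse cDC1s than in both cDC2 subsets were described. Accessibility was measured by ATAC-seq, in which a transposase cuts open DNA and the reads mark where it cut, and each window is 150 bases around the summit of a peak. A window belonged to the set when both cDC1 libraries had at least 3 CPM (its count scaled to the reads in all windows of the library) and the lower of both cDC1 values was at least 1.5 times the highest of the 4 cDC2 values. The windows were thus chosen by the accessibility measured in all 6 ATAC-seq libraries. Of 177956 windows, 14492 (8.14%) met this rule, which is 19.9% of the 72767 windows with at least 3 CPM in both cDC1 libraries. They lay in 11717 of 74217 peaks. For comparison, a mirror set of 4974 windows had at least 3 CPM in all 4 cDC2 libraries and a lowest cDC2 value of at least 1.5 times the highest cDC1 value.

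All cells came from Tbx21RFP-cre mice, male and female and 6 to 10 weeks old, in which RFP reports the transcription factor T-bet, and no library was from a mouse without the reporter. No treatment was given. cDC1s were sorted as XCR1+ CD11b- cells, T-bet+ cDC2s as RFP+ and T-bet- cDC2s as RFP- cells, so Xcr1, Itgam (CD11b) and Tbx21 separated the subsets by the sort. ATAC-seq was made from 50000 cells per library of spleen, with 2 libraries per subset. RNA-seq was made from cells of 2 pooled mice per library, with 3 libraries per subset from spleen, and from mesenteric lymph node (MLN) 3 libraries of cDC1s, 2 of T-bet+ cDC2s and 2 of T-bet- cDC2s. The replicates are separate libraries, which the study calls biological replicates. It gives 2 for MLN, while the labels list 3 MLN libraries of cDC1s. Where replicates do not come from separate mice, the p values measure technical spread. Reads in windows were 7270164 to 10081555 per ATAC-seq library, and reads on genes 20993220 to 29006549 per RNA-seq library. In spleen the summed RNA of 8 cDC1 markers was 6259 to 7142 CPM in cDC1s, 143 to 236 CPM in T-bet+ cDC2s and 235 to 580 CPM in T-bet- cDC2s, so the labels and the markers went together. Markers named for other cells differed too, and their part in the results below was not tested. The monocyte marker Ccr2 is also on the list of cDC2 genes used below. The study reports CCR2 in both cDC2 subsets, higher in T-bet- cDC2s, and holds that monocyte genes do not tell monocytes from T-bet- cDC2s. In spleen, 3 monocyte markers summed to 28.8 to 71.2 CPM in cDC1s, 4.14 to 4.78 CPM in T-bet+ and 127 to 340 CPM in T-bet- cDC2s, and 4 red pulp macrophage markers to 165 to 242 CPM, 92.3 to 98.9 CPM and 441 to 644 CPM. The 4 B cell markers summed to 35.1 to 73.7 CPM in cDC1s, where 3 of them were under 1 CPM in each library, and to 23.7 to 35.0 CPM and 2.73 to 7.17 CPM in the T-bet+ and T-bet- cDC2s. Neutrophil and plasmacytoid DC markers were lower in cDC1s (7.84 to 13.1 and 59.7 to 72.2 CPM) than in cDC2s (30.4 to 49.2 and 89.3 to 167 CPM), and T cell and NK cell markers summed to at most 4.06 CPM. RNA libraries also differed in how their deviations from the mean of the tissue's libraries went with GC content. This was taken at the most GC-rich stretch of each gene's longest transcript. In spleen T-bet- replicates 1 and 2 and cDC1 replicate 3 stood apart from the other 6, and in MLN cDC1 replicates 2 and 3 and T-bet- replicate 2 from the other 4, so counts are also given with this class as a term.

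cDC1s are the dendritic cells that take up dying cells and present their antigens on MHC class I to CD8+ T cells, a process called cross-presentation. Their development requires the transcription factors IRF8 and BATF3. IRF8 binds DNA weakly on its own and pairs with partners, with an ETS factor such as PU.1 at composite elements called EICE, with an AP-1 factor such as BATF3 at elements called AICE, or with another IRF at interferon-stimulated response elements (ISRE). Enhancers and promoters that are in use are open to transposase, so a window open in one cell type marks DNA that may be bound there. cDC2s express little IRF8 and depend on IRF4 and other factors.

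Sequences that hold an IRF element are shown first, because these elements were more frequent among the windows open in cDC1s than among all windows. The letters are the plus strand of mm10, 5′ to 3′, with the matched element in capitals. An element on the minus strand appears as its reverse complement. Of the 108 windows of the set at genes of cDC1 regulators and of cDC1 surface and uptake receptors, 12 (11.1%) held a match, a smaller share than the 16.5% of the whole set. At the regulators there were 6.
Irf8 chr8:120768261-120768410 ISRE: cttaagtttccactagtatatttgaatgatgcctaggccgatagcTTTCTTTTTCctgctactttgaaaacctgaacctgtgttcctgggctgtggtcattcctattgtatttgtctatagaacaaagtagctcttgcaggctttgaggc
Irf8 chr8:120774695-120774844 EICE: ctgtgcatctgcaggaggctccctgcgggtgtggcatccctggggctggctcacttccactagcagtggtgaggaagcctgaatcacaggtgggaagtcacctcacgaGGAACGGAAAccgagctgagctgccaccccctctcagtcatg
Bcl6 chr16:23999955-24000104 EICE: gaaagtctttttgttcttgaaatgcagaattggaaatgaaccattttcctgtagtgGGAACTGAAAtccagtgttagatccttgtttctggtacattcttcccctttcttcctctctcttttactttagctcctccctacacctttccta
Etv6 chr6:134066946-134067095 EICE: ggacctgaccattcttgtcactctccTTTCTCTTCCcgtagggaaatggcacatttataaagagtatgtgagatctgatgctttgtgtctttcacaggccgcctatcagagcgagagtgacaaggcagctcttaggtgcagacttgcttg
Etv6 chr6:134225544-134225693 ISRE: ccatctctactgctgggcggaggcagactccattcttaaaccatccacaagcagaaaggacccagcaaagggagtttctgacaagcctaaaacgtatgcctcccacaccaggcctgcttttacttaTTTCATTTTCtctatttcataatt
Zfp366 chr13:99163774-99163923 EICE: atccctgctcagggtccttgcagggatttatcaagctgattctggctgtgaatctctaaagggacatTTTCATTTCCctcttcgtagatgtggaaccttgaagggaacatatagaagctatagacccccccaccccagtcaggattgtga
Both Irf8 windows lie downstream of the gene, 31978 and 38412 bases from its start, and inside introns of the annotated transcript Gm20388, which spans the region. In the EICE window at Irf8 accessibility was 13.4 and 12.1 CPM in cDC1s, 1.88 and 2.19 CPM in T-bet+ cDC2s and 3.35 and 2.54 CPM in T-bet- cDC2s. The Bcl6 window is intergenic, 11103 bases upstream of this gene for a transcriptional repressor, with 13.8 and 10.5 CPM in cDC1s and 0.694 to 2.76 CPM in cDC2s. Both Etv6 windows are intronic, 31321 and 189919 bases from the start of the gene, which encodes an ETS-family repressor. The Zfp366 window is intergenic, 20900 bases upstream of the gene for the zinc finger protein DC-SCRIPT.

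Near genes for cDC1 surface and uptake receptors, 4 windows are shown, one for each of the chemokine receptor gene Xcr1, the endocytic receptor gene Ly75 (DEC-205), the Toll-like receptor gene Tlr12 and the peptidase gene Dpp4 (CD26).
Xcr1 chr9:123863318-123863467 EICE: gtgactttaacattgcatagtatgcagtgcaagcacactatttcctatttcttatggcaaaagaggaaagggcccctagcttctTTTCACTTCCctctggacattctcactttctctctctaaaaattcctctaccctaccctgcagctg
Ly75 chr2:60363093-60363242 EICE: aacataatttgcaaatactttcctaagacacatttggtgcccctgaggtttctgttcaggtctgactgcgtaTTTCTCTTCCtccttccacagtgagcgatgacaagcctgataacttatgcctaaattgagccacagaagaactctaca
Tlr12 chr4:128629447-128629596 EICE: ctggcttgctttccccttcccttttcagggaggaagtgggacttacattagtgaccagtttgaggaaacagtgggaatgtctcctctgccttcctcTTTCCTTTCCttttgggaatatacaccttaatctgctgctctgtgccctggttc
Dpp4 chr2:62408412-62408561 EICE: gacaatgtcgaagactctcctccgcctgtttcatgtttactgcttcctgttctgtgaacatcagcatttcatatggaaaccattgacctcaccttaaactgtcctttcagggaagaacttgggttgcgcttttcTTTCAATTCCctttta
The Xcr1 window lies in the promoter region, 1289 bases upstream of the gene, with 11.0 and 16.8 CPM in cDC1s, 2.58 and 2.29 CPM in T-bet+ cDC2s and 6.11 and 6.72 CPM in T-bet- cDC2s. The Dpp4 window lies in an intron, 3744 bases from the start, and 2 more of the 4 Dpp4 windows in the set also held an EICE. The Ly75 window is in the body of Ly75 and was classed as exonic because it overlaps an exon of the antisense gene Gm13571. The Tlr12 window is intergenic, 10828 bases upstream of the gene.

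Among the 10 windows with the largest ratio of cDC1 to cDC2 accessibility, 2 held an IRF element, and both are intronic. The Rala window carries a spaced AICE and the Gng2 window an ISRE on the minus strand.
Rala chr13:17891711-17891860 AICE spaced: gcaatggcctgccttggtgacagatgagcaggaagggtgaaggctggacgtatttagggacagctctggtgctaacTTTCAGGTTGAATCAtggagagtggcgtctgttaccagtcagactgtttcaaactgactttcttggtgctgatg
Gng2 chr14:19948417-19948566 ISRE: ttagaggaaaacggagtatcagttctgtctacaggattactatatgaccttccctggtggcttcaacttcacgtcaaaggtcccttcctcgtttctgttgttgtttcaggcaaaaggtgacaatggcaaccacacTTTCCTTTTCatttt
Rala encodes a small GTPase of vesicle traffic and Gng2 a G protein gamma subunit. The Rala window had 37.1 and 34.9 CPM in cDC1s against 0.099 and 0.598 CPM in T-bet+ cDC2s and 0.958 and 1.02 CPM in T-bet- cDC2s. The Gng2 window had 21.7 and 24.2 CPM in cDC1s against 0.198 to 0.814 CPM in cDC2s, and it shares bases with another window of the set.

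The values that chose the windows are given as a description. The median accessibility of the set was 6.27 and 7.01 CPM in the cDC1 libraries, 1.29 and 1.40 CPM in the T-bet+ and 1.56 and 1.63 CPM in the T-bet- libraries. The windows held 12.3% and 13.4% of the reads in windows of the cDC1 libraries and 2.92% to 3.55% in cDC2s. The ratio of the lower cDC1 to the highest cDC2 value had a median of 2.55, with quartiles of 1.87 and 4.03. It was at least 2 in 9933 windows (68.5%), at least 5 in 2386 (16.5%) and at least 10 in 491. The name "open only in cDC1" is therefore stricter than the windows are, since no window was at 0 reads in all 4 cDC2 libraries and most differed by degree. At these depths 3 CPM is 21.8 to 23.9 reads, and intervals on a single window cover counting error only.

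**Figure D1:**
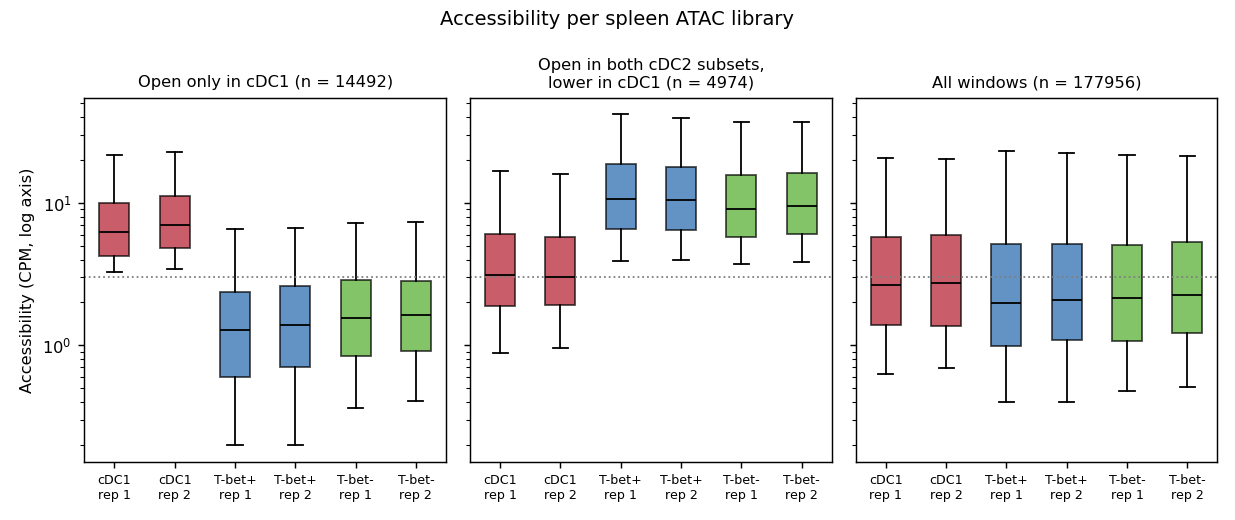
Accessibility of the windows open in cDC1s (14492), the mirror set (4974) and all windows (177956) in each ATAC-seq library, in CPM on a log axis, with boxes for quartiles, lines for medians and whiskers for the 5th and 95th percentiles. The median of the set is 6.27 and 7.01 CPM in cDC1 libraries and 1.29 to 1.63 CPM in the cDC2 libraries, which the rule fixes, and the 2 libraries of each subset lie close together.

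The window with the most uneven accessibility by a ratio that adds 0.5 CPM to both values was chr3:79544141-79544290, in an intron of Fnip2, a folliculin partner that acts on nutrient signaling. It had 42.9 and 39.2 CPM in cDC1s and 0.0997 to 0.916 CPM in the cDC2 libraries. Next to Rala and Gng2, the same ranking named intronic windows of the zinc transporter gene Slc30a7 (16.6 and 18.8 CPM in cDC1s, at most 0.305 CPM in cDC2s), of Snd1, of the Notch coactivator gene Maml3 and of the sulfotransferase gene Chst9, an intergenic window upstream of Tmpo (16.1 and 15.4 CPM against at most 0.305 CPM) and one on chromosome 17 with no gene of the RNA-seq table within 50000 bases (25.2 and 21.7 CPM against at most 0.719 CPM). Windows with the highest cDC1 level were of another kind. The intergenic window chr3:5860611-5860760 had 142 and 134 CPM in cDC1s but also 58.0 to 69.6 CPM in cDC2s, and the Fam160a2 promoter window had 100 and 95.9 CPM in cDC1s, 10.3 and 13.7 CPM in T-bet+ and 55.3 and 49.6 CPM in T-bet- cDC2s. At the threshold itself, a Frmd4b window just inside the rule had 6.65 and 7.84 CPM in cDC1s and at most 4.43 CPM in cDC2s, and a Cd40 promoter window just outside had 17.3 and 15.3 CPM in cDC1s and at most 10.2 CPM in cDC2s.

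The set lay further from gene starts than the average window. Intronic windows made up 44.0% of it, intergenic 27.9%, promoter 18.8% and exonic 5.26%, with promoter meaning within 2000 bases of any annotated transcript start, while 3.98% had no annotated gene of any kind within 50000 bases. Among all windows 30.1% were at promoters and 34.2% intronic, and in the mirror set 25.6% and 38.9%. Within 500 bases of a transcript start lay 8.30% of the set, 12.5% of the mirror set and 19.1% of all windows. The windows were spread over the genome, with 6.60% to 9.86% of the windows of each chromosome in the set, apart from chromosome Y with 1 of 28. Their GC content had a median of 46.7%, against 50.0% in the mirror set and 49.3% over all windows, and it was 48.0% at ratios of 1.5 to 2 and 44.7% at ratios of 5 or more. Relative to the mean of all ATAC-seq libraries, the cDC1 libraries were themselves shifted to windows of low GC content. The Spearman correlation of a library's deviation from that mean with GC over windows was -0.05 and -0.14 in cDC1s, against 0.02 to 0.15 in cDC2s. The part of this shift in the set's GC content was not tested.

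Short consensus elements were counted on both strands, and a match is a description of letters, not of binding. An EICE (GGAANNGAAA) was found in 1512 windows of the set (10.4%), in 3.19% of all windows and in 2.15% of the mirror set. An ISRE (GAAANNGAAA) was found in 860 windows (5.93%), in 2.39% of all windows and in 1.49% of the mirror set. A spaced AICE (TTTCNNNNTGANTCA) was found in 68 windows (0.469%), against 0.146% of all windows and 0.080% of the mirror set. The AICE with no spacer (GAAATGANTCA) was found in 44 windows (0.304%) and was about as frequent in the mirror set (0.261%). Some letters match more than 1 element, so 2389 windows (16.5%) held at least one of the 4, against 5.69% of all windows, 6.64% of all windows after weighting to the GC content of the set, and 3.90% of the mirror set.

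The share with an IRF element went up with the ratio, from 13.8% at ratios of 1.5 to 2 through 16.9% and 17.3% to 19.8% at ratios of 5 or more. Median GC content fell over the same steps, from 48.0% to 44.7%, and the shares by ratio were not weighted for it. The share with an IRF element was similar at promoters and away from them, with 14.7% of the set's promoter windows against 4.19% of all promoter windows and 16.9% against 6.34% elsewhere. Of windows with an ISRE, 59.4% in the set, 53.5% over all windows and 45.9% in the mirror set had a match within 25 bases of the window's centre. For EICE the shares were 57.3%, 54.5% and 43.0%. Over the set and all windows they were 53.3% and 49.2% for PU.1, 51.4% and 48.3% for AP-1 and 43.5% and 44.7% for Runx elements.

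Elements of other factors were distributed differently. The PU.1 element (GAGGAAG) was found in 19.6% of the set, 21.2% of the mirror set and 13.2% of all windows, so it was frequent in both directions. The AP-1 element (TGANTCA) was more frequent in the mirror set (16.8%) than in the set (11.7%), with 7.90% over all windows. Elements for Runx factors (TGTGGTT, 5.18% against 11.8% in the mirror set), C/EBP (TTGCNNAA, 5.22% against 10.3%) and NF-kB (GGGANTTTCC, 0.138% against 2.13%) were also more frequent in the mirror set. The NF-kB element was rarer in the set than over all windows (0.433%), as was the CTCF element (CCANNAGNNGGC, 0.925% against 4.24%), which marks insulators shared by many cell types. The E-box CACCTG, bound by E proteins and by ZEB factors, was found in 10.6% of the set and 5.05% of the mirror set but in 10.8% of all windows. The T-box element (AGGTGTNA) was found in 1.89% of the set and 1.92% of all windows.

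**Figure D2:**
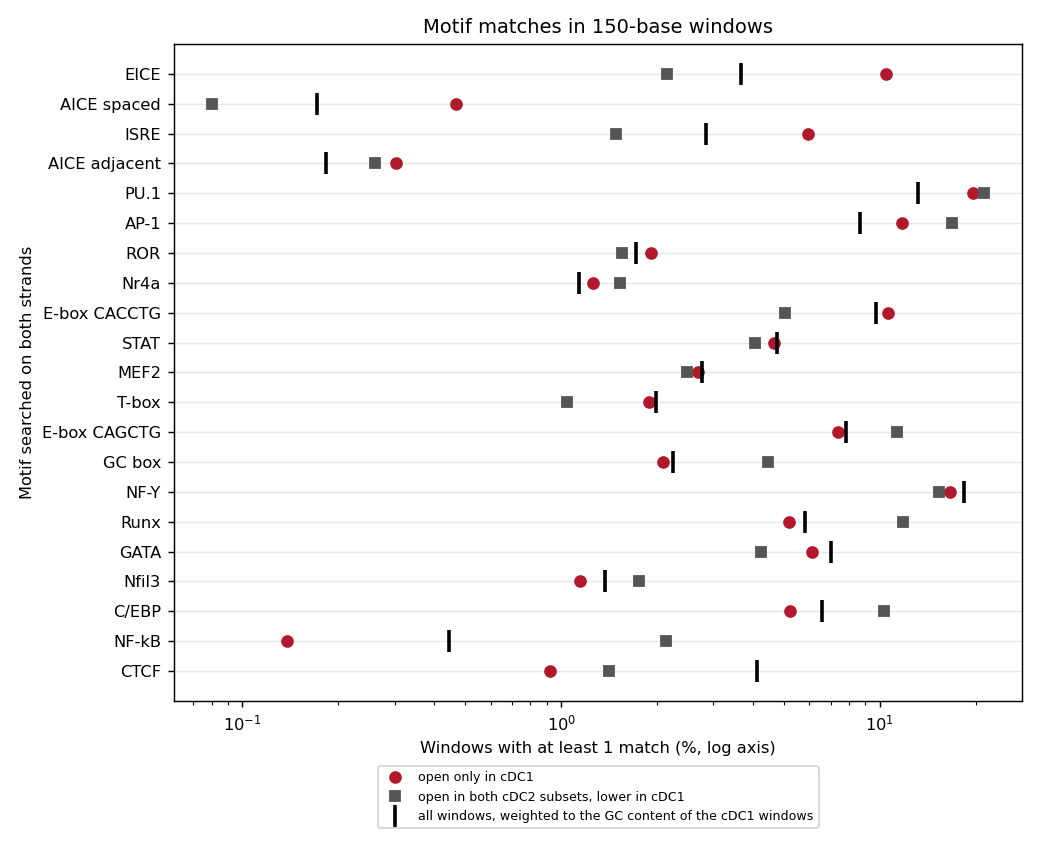
Share of windows that hold each consensus element, in percent on a log axis, for the windows open in cDC1s (circles), the mirror set (squares) and all windows weighted to the set's GC content (bars). EICE, ISRE and the spaced AICE stand to the right in the windows open in cDC1s (10.4%, 5.93% and 0.469%), while NF-kB, Runx and C/EBP stand to the right in the mirror set.

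A gene of the RNA-seq table was assigned to a window when its body was the nearest within 50000 bases, which gave 12158 windows (83.9%) a gene, as for all windows (84.0%), and named 5301 genes. Among 14 genes of cDC1 regulators, 11 had a window of the set nearby, and these were 46 of the list's 358 windows (12.8%, against 8.14% of all windows). Irf8 (chr8:120736358-120756694), the lineage factor of cDC1s, had 8 of 26 windows in the set, all of them 23673 to 48094 bases downstream of its start. Accessibility at the highest of them, chr8:120768623-120768772, was 38.8 and 34.0 CPM in cDC1s, 3.27 and 4.89 CPM in T-bet+ cDC2s and 3.95 and 4.58 CPM in T-bet- cDC2s. Id2, an inhibitor of E proteins that all cDC1s need, had 7 of 14 windows in the set, 5 of them between 3469 and 4904 bases from its start. The window chr12:25092889-25093038 there had 31.6 and 33.3 CPM in cDC1s and 7.23 to 16.4 CPM in cDC2s.

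Etv6 had 12 of 95 windows in the set, Bcl6 4 of 24, Zbtb46, a factor shared by conventional DCs, 4 of 28, the corepressor gene Cbfa2t3 3 of 18, and Nfil3, Mycl and Zfp366 had 1 each. In an intron of Etv6, chr6:134238640-134238789 had 12 CPM in both cDC1 libraries and 0.298 to 0.712 CPM in the cDC2s. Batf3 had 3 of 34, of which the window at chr1:191100287-191100436, within the gene, had 17.3 and 15.1 CPM in cDC1s, 3.87 and 3.79 CPM in T-bet+ and 2.87 and 1.53 CPM in T-bet- cDC2s. Ikzf1, Spi1, which encodes PU.1, and Relb had windows but none in the set.

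Genes of the surface and uptake list had the highest share of their windows in the set, 62 of 267 (23.2%), with 3.75% in the mirror set. Cadm1, an adhesion molecule of cDC1s, had 19 of 45, Tlr3, the sensor of double-stranded RNA, 8 of 14, Ly75 7 of 19, Cd36, a scavenger receptor, 5 of 31, Cd8a 4 of 12 and Tlr12 4 of 6. The Ly75 window chr2:60376537-60376686 had 37.6 and 39.1 CPM in cDC1s and 3.23 to 4.79 CPM in cDC2s. At the start of Clec9a, a receptor for dead cells, chr6:129408793-129408942 had 8.28 and 14.2 CPM in cDC1s, 0.794 and 0.0997 CPM in T-bet+ and 1.92 and 1.83 CPM in T-bet- cDC2s. The window upstream of Tlr11, a sensor of microbial profilin, had 18.8 and 25.2 CPM in cDC1s and 1.49 to 4.27 CPM in cDC2s. Xcr1, Itgae (CD103) and Cd24a had 1 window each, the last at 16.4 and 17.9 CPM in cDC1s and 0.794 to 1.83 CPM in cDC2s. Btla, Havcr2 and Clec4a1 had none.

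On the list of cross-presentation and vesicle genes, 47 of 254 windows were in the set (18.5%, against 1.18% in the mirror set), near 12 of 21 genes. Fgd6, an exchange factor for Cdc42, had 10 of 25, Wdfy4, which cDC1s need for cross-presentation of cell-associated antigen, 8 of 26, the lysosomal thioesterase gene Ppt1 8 of 23, Rab7b, a GTPase of late endosomes, 5 of 16 and Gcsam 5 of 12. The window chr4:122811311-122811460, 24782 bases upstream of Ppt1, had 26.2 and 31.6 CPM in cDC1s and 1.99 to 3.35 CPM in cDC2s. The intronic Gcsam window chr16:45616056-45616205 had 17.6 and 18.7 CPM in cDC1s and 1.19 to 2.04 CPM in cDC2s. Genes of MHC class I loading common to many cells were mostly outside the set, with 1 of 4 windows for the peptide transporter gene Tap1 and none for Tap2, Tapbp, B2m, Psmb8, Psmb9 and Erap1. Naaa, Sept3 and Ncf1 of the same list also had windows but none in the set.

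At cytokine and chemokine genes 6 of 121 windows were in the set (4.96%, against 8.14% of all windows), and these were 3 at Il15, which supports CD8+ T and NK cells, and 1 each at Ccl22, Il12a and Ifnb1. Il12b, Cxcl9, Cxcl10, Ccl5, Il18, Il27 and Ccr7 had windows but none in the set. On the list of 20 cDC2 genes 17 of 264 windows (6.44%) were in the set and 7.58% in the mirror set. Notch2, a receptor required by the Esam+ cDC2s, had 7 of 53, while Sirpa, Irf4, Cd4, Klf4, Tbx21, Dtx1, Ccr2, Lyz2 and Clec4a4 had none. A window in an exon of Itgam, chr7:128080203-128080352, had 7.03 and 5.91 CPM in cDC1s against 0.305 to 0.598 CPM in cDC2s, at a gene whose product the sort kept out of cDC1s.

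**Figure D3:**
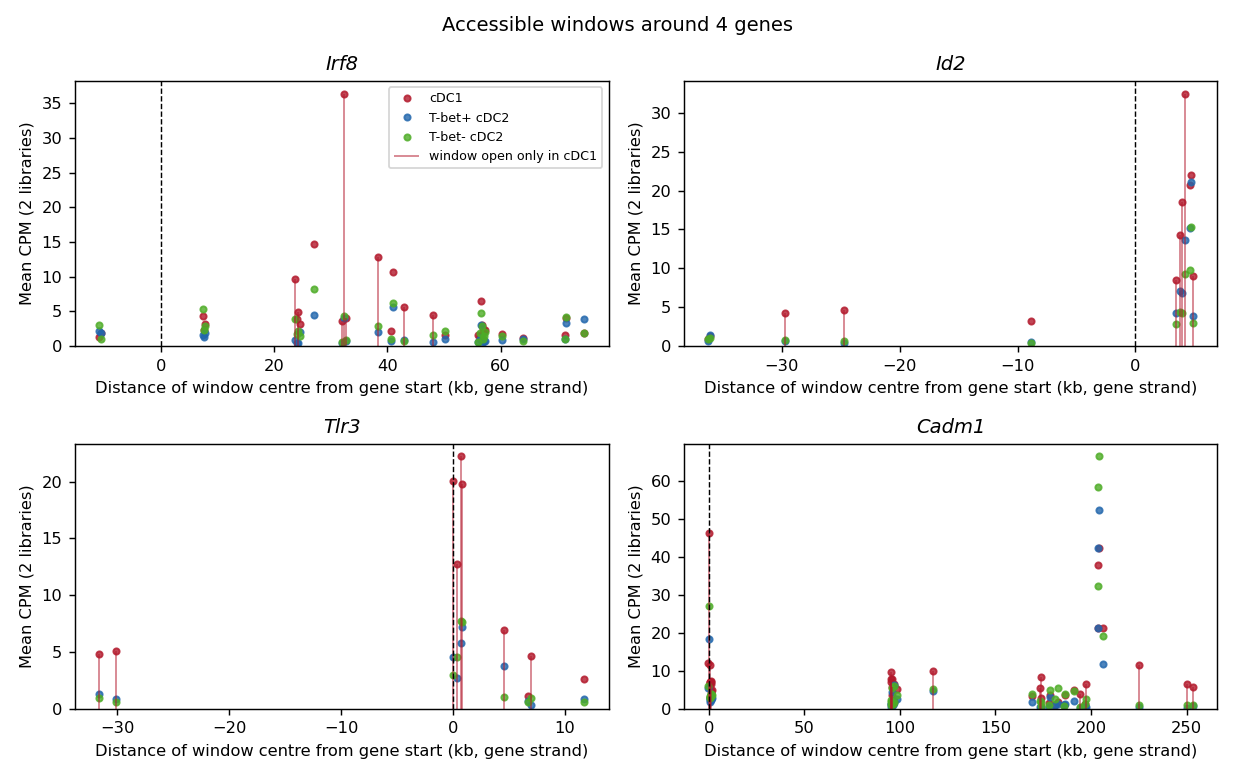
Mean accessibility of the windows around Irf8, Id2, Tlr3 and Cadm1 by distance from the gene start in kilobases, in CPM, for each subset (means of 2 libraries), with a vertical line at each window of the set. The marked windows of Irf8 lie 23.7 to 48.1 kilobases downstream of its start, while those of Cadm1 lie at its start and through the body of the gene.

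RNA-seq gave a measure that the rule did not use. It was compared between cDC1s and the mean of both cDC2 subsets with edgeR's quasi-likelihood test over all genes, and a gene was called higher or lower when its p, adjusted by Benjamini and Hochberg's method, was under 0.05. In bulk RNA a lower value cannot tell fewer expressing cells from less RNA per cell. In spleen 9.01% of 14377 tested genes were higher in cDC1s and 10.6% were lower. Of the 4069 tested genes with a window of the set nearby, 724 (17.8%) were higher and 367 (9.02%) lower, with a median log2 difference of 0.24 against 0.02 over all genes. Of the 6182 genes with windows but none in the set, 367 (5.94%) were higher and 829 (13.4%) lower.

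With the GC class of the library as a term in the fit, 968 genes near the set (23.8%) were higher and 505 (12.4%) lower, against 12.7% and 13.9% of all tested genes.

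Genes with more windows of the set were more often higher in cDC1s. The share was 13.4% with 1 window, 17.6% with 2 or 3, 27.3% with 4 to 6, and 34.2% (76 of 222) with 7 or more. Among genes with 10 to 20 windows of any kind the shares were 5.52% with none in the set, 16.1% with 1 to 3 and 34.5% with 4 or more. Genes near windows of both kinds were intermediate, with 12.4% higher and 18.2% lower, while 3.59% were higher and 31.7% lower with mirror windows only. Of genes with a window of the set at a promoter 24.3% were higher, and 14.3% of those with such windows elsewhere only. Read from the RNA side, 55.9% of the 1295 higher genes, 24.0% of the lower genes and 28.3% of all tested genes had a window of the set nearby.

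In MLN, where 3.69% of 15298 genes were higher and 5.46% lower in cDC1s, 352 of 4158 genes near the set (8.47%) were higher and 232 (5.58%) lower. The share higher was 6.10% with 1 window, 8.24% with 2 or 3, 14.6% with 4 to 6 and 15.7% with 7 or more, and 2.25% with windows but none in the set. The ATAC-seq libraries are from spleen, so these are windows of another tissue. Counts in MLN depended on single libraries. Without cDC1 replicate 3 there were 146 higher and 108 lower genes, without cDC1 replicate 2 216 and 134, without T-bet- replicate 1 124 and 106, and without T-bet- replicate 2 166 and 111, and in each case the share higher near the set was above that over all genes. With the GC class as a term, 258 were higher (6.20%, against 2.68% of all) and 153 lower (3.68% against 3.44%).

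**Figure D4:**
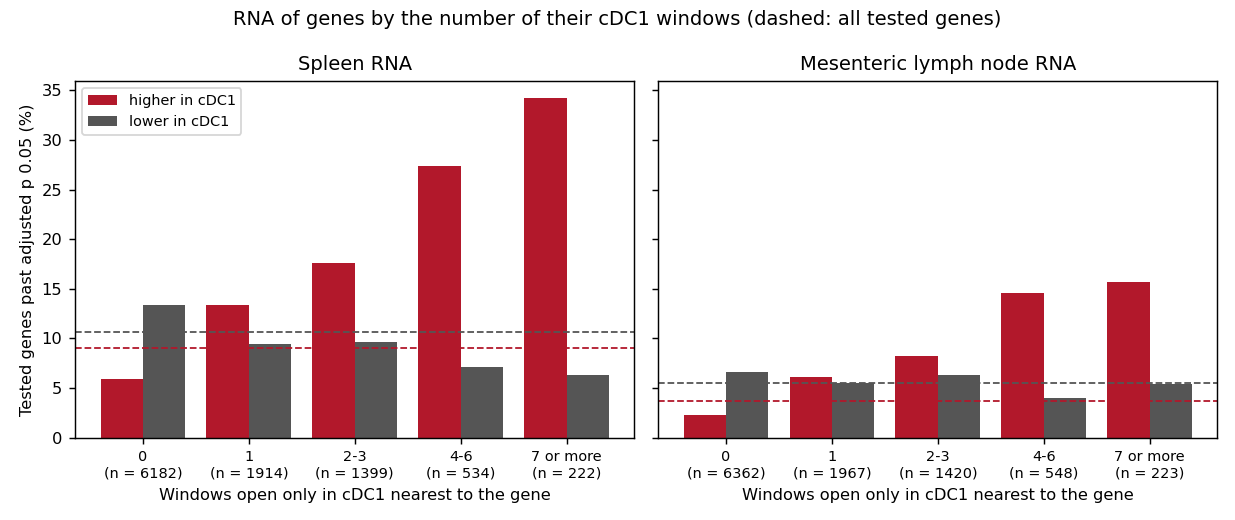
Share of tested genes with higher or lower RNA in cDC1s than in cDC2s, in percent, by the number of windows of the set nearest to the gene, in spleen and MLN. The share higher goes from 5.94% with none to 34.2% with 7 or more in spleen and from 2.25% to 15.7% in MLN.

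Of the 11 tested regulators with a window of the set, 5 were higher in spleen cDC1s and none lower. Over the whole list of 14 regulators, 5 were higher and 0 lower. The lists were chosen as genes of these subsets, so such counts are not read as results about the windows. Irf8 RNA was 3868, 3737 and 2605 CPM in cDC1s, 60.7, 48.5 and 73.1 CPM in T-bet+ cDC2s and 147, 243 and 431 CPM in T-bet- cDC2s, a log2 difference of 4.71 ± 0.31 (SE, n = 3 per subset, edgeR adjusted p = 7.7e-06). The subsets did not overlap, and T-bet- cDC2s lay above T-bet+ cDC2s. Id2 RNA was 964 to 1460 CPM in cDC1s and 434 to 839 CPM in cDC2s (log2 difference 0.96 ± 0.19, adjusted p = 0.0063), while in MLN its log2 difference was 0.06 ± 0.36 (adjusted p = 0.94). Mycl, a Myc family gene (2.12 ± 0.51), Zfp366 (1.66 ± 0.39) and the retinoid receptor gene Rxra (1.35 ± 0.26) were the other 3. Against T-bet- cDC2s alone Rxra was not called (0.31 ± 0.31, adjusted p = 0.55) and neither was Zfp366 (1.25 ± 0.48, adjusted p = 0.12), so that both calls rested on the T-bet+ side, while Mycl was not called against T-bet+ cDC2s alone (1.87 ± 0.63, adjusted p = 0.073). The call of Mycl was lost without cDC1 replicate 1 (1.99) or 2 (1.83), and that of Zfp366 without cDC1 replicate 2 (1.67) or 3 (1.17).

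Open windows at a regulator did not always come with more RNA. Some of these genes also had mirror windows, 2 at Batf3, 8 at Etv6 and 1 at Nfil3, while Bcl6, Zbtb46 and Cbfa2t3 had 0. Batf3 RNA was 155, 90.9 and 87.3 CPM in cDC1s, 110, 80.7 and 146 CPM in T-bet+ cDC2s and 31.3, 65.3 and 75.9 CPM in T-bet- cDC2s, so cDC1s and T-bet+ cDC2s overlapped (log2 difference 0.46 ± 0.32, adjusted p = 0.38). Etv6, with 12 windows of the set, had 165 to 226 CPM in cDC1s and 166 to 250 CPM in cDC2s (0.02 ± 0.18, adjusted p = 0.96). Bcl6 had 55.7 to 142 CPM and 103 to 212 CPM (-0.31 ± 0.32, adjusted p = 0.55). Nfil3, Zbtb46 and Cbfa2t3 were not called either. In MLN Irf8, Mycl and Zfp366 were higher (Irf8 3.53 ± 0.56, adjusted p = 0.0088), and the call of Irf8 was lost without T-bet- replicate 1, where its log2 difference was 3.35. The MLN call of Mycl was lost without any 1 of 4 libraries (1.44 to 1.80) and with the GC class as a term (1.75), and that of Zfp366 without cDC1 replicate 3 (1.16) or T-bet- replicate 1 (1.17). None of the 3 was called against T-bet- cDC2s alone in MLN.

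Of 14 surface and uptake genes with a window of the set 11 were higher in spleen cDC1s, 10 of them also in MLN, and none was lower. Over the whole list of 17, 13 were higher and 1 lower in spleen, and 11 and 1 in MLN. The MLN calls of Clec9a, Cd8a and Cd36 were each lost without T-bet- replicate 1 (log2 differences of 5.23, 4.51 and 3.33) and without T-bet- replicate 2 (5.08, 4.76 and 3.21). The MLN call of Tlr12 was lost without T-bet- replicate 2 (2.28), and that of Tlr11 without any 1 of 4 libraries (1.55 to 2.12). Against T-bet- cDC2s alone Tlr12 (1.02 ± 0.57, edgeR adjusted p = 0.38), Tlr11 (1.83 ± 0.56, 0.11), Cd8a (4.04 ± 1.03, 0.063) and Cd36 (3.02 ± 0.73, 0.055) were not called in MLN. Against T-bet+ cDC2s alone Clec9a (4.78 ± 1.18, 0.055) and Tlr11 (2.07 ± 0.57, 0.074) were not called there. Cd8a RNA was 1029, 875 and 1126 CPM in spleen cDC1s, 1.94 to 4.18 CPM in T-bet+ and 9.90 to 13.2 CPM in T-bet- cDC2s (log2 difference 7.49 ± 0.27, adjusted p = 4.4e-07). Clec9a was at 142, 182 and 197 CPM in cDC1s, 0.040 to 0.252 CPM in T-bet+ and 1.86 to 8.82 CPM in T-bet- cDC2s (7.60 ± 0.53). Itgae (8.43 ± 0.62), Xcr1 (6.92 ± 0.26), Cadm1 (6.42 ± 0.56), Tlr3 (6.00 ± 0.30), Cd36 (5.08 ± 0.43), Tlr12 (5.08 ± 0.54), Tlr11 (3.86 ± 0.31), the heat-stable antigen gene Cd24a (3.80 ± 0.16) and Ly75 (3.42 ± 0.38) completed the group. Tlr12 RNA was 193 to 290 CPM in cDC1s, 0.199 to 2.95 CPM in T-bet+ and 23.9 to 38.1 CPM in T-bet- cDC2s, and the 3 subsets did not overlap. Not called were the cytokine receptor gene Flt3 (661, 693 and 379 CPM in cDC1s, 145 to 479 CPM in cDC2s), Dpp4 (348 to 685 CPM and 276 to 598 CPM) and Slamf7. Flt3 had 3 windows in the set and 3 in the mirror set, Slamf7 3 and 1, and Dpp4 4 and 0.

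Of 12 vesicle and cross-presentation genes with a window of the set 9 were higher in spleen cDC1s and 1, Cybb, was lower. Over the whole list of 21, 14 were higher and 2 lower. Ppt1 RNA was 5935, 6566 and 7879 CPM in cDC1s, 151 to 162 CPM in T-bet+ and 310 to 468 CPM in T-bet- cDC2s (log2 difference 4.77 ± 0.16, adjusted p = 4.2e-07). Rab7b was at 1032 to 1190 CPM in cDC1s, 0.398 to 1.94 CPM in T-bet+ and 33.1 to 58.7 CPM in T-bet- cDC2s (7.09 ± 0.41). Gcsam was at 314, 328 and 417 CPM in cDC1s and 3.03 to 7.97 CPM in T-bet- cDC2s, with at most 0.076 CPM in T-bet+ cDC2s, so a fitted fold against these would rest on the prior count. Fgd6 (6.42 ± 0.87), Snx22 (4.47 ± 0.31), Wdfy4 (2.33 ± 0.43), Rab32 (2.16 ± 0.15), Tap1 (1.34 ± 0.24) and Rab11a (1.32 ± 0.35) were higher as well, though the call of Rab11a was lost without any 1 of 6 libraries (1.18 to 1.34) and it was not called against T-bet+ cDC2s alone (0.79 ± 0.42, adjusted p = 0.25). Cybb, which encodes the NADPH oxidase subunit gp91phox, went the other way, with 4.59 to 15.9 CPM in cDC1s and 304 to 1438 CPM in cDC2s (-5.99 ± 0.49), and 1 of its 21 windows was in the set. Rab43 (1.64 ± 0.79, adjusted p = 0.19) and Sec22b (0.08 ± 0.18) were not called. Rab43 was 129, 142 and 13.9 CPM in cDC1s, so its missing call does not show equal RNA.

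Among cytokine genes, Il15 (log2 difference 1.55 ± 0.22) and Ccl22 (1.46 ± 0.20) were higher in spleen cDC1s, and Ccl22 was 64.3 to 96.8 CPM in cDC1s, 12.1 to 13.9 CPM in T-bet+ and 59.5 to 88.5 CPM in T-bet- cDC2s, so that its difference lay on the T-bet+ side. Il12a and Ifnb1 had at most 0.44 CPM in every spleen library and were not tested. Over the 10 tested genes of the cytokine list, 5 were higher and 2 lower. Over the whole list of 20 cDC2 genes, 14 were lower in spleen cDC1s and 1 was higher. Of the 8 with a window of the set, 4 were lower and 1 was higher. The lower ones were Itgam (-5.79 ± 0.43), the lectin gene Mgl2 (-5.31 ± 0.36), the chemokine receptor gene Cx3cr1 (-4.79 ± 0.49) and Csf1r (-4.47 ± 0.25), the M-CSF receptor, with 26.3 to 40.2 CPM in cDC1s, 197 to 253 CPM in T-bet+ and 1790 to 2922 CPM in T-bet- cDC2s. The inhibitory lectin gene Clec12a was the higher one, with 188 to 237 CPM in cDC1s, 5.78 to 9.65 CPM in T-bet+ and 186 to 233 CPM in T-bet- cDC2s. cDC1s and T-bet- cDC2s overlapped for it (log2 difference between them 0.04 ± 0.23, adjusted p = 0.94). Notch2, with 7 windows of the set and 4 of the mirror set, was not called (0.31 ± 0.32). Itgam had 2 windows in the set and 2 in the mirror set, Cx3cr1 1 and 3, Csf1r 2 and 1, Mgl2 1 and 0 and Clec12a 2 and 0.

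**Figure D5:**
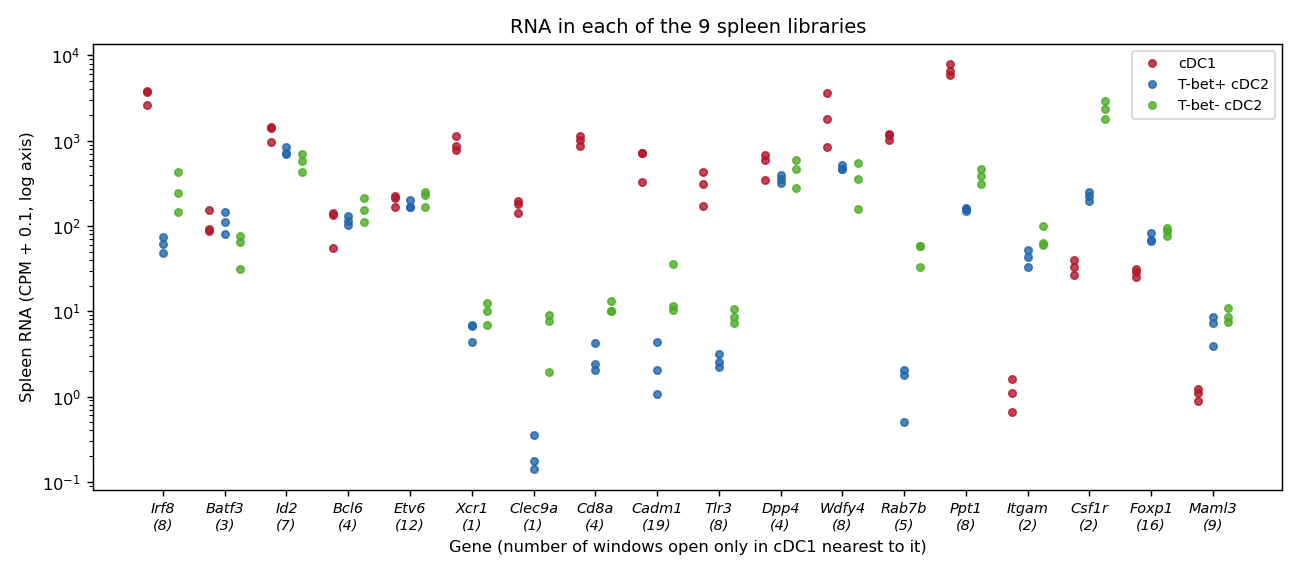
Spleen RNA of genes with windows of the set, in CPM with 0.1 added on a log axis, with 1 point for each of 3 libraries per subset. Irf8, Cd8a and Ppt1 separate cDC1s from both cDC2 subsets, while cDC1s overlap T-bet+ cDC2s for Batf3 and both cDC2 subsets for Etv6.

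The 10 genes with the most windows of the set were, apart from Cadm1, on none of the lists. Sgms1, for a sphingomyelin synthase, had 24 of 102 windows in the set and 225 to 261 CPM in spleen cDC1s against 49.4 to 124 CPM in cDC2s (log2 difference 1.63 ± 0.24, adjusted p = 0.00099). The transporter gene Slco3a1 (15 of 50 windows, 3.92 ± 0.37), the kinase gene Cdk14 (18 of 89, 1.64 ± 0.20) and the RNA-binding protein gene Rbm47 (15 of 80, 0.82 ± 0.17) were also higher. Foxp1, a forkhead repressor with 16 of 153 windows in the set and 11 in the mirror set, was lower in cDC1s, with 25.4 to 31.0 CPM against 65.6 to 95.2 CPM (-1.48 ± 0.19, adjusted p = 0.00043). Nsmce2 (19 windows), Dip2c (18), Exoc4 (17) and Vps13b (17) were not called.

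Genes at the windows with the largest ratios also differed among themselves. Fnip2 RNA was 33.3, 66.1 and 107 CPM in cDC1s, 0.180 to 1.44 CPM in T-bet+ and 3.46 to 5.78 CPM in T-bet- cDC2s (log2 difference 5.19 ± 0.52, adjusted p = 0.00011). Gng2 (0.82 ± 0.20, adjusted p = 0.019) and Slc30a7 (0.72 ± 0.18, adjusted p = 0.021) were higher by less, and both calls were lost without cDC1 replicate 2 (0.84 and 0.71), cDC1 replicate 3 (0.77 and 0.63) or T-bet+ replicate 3 (0.80 and 0.71), that of Slc30a7 also without T-bet+ replicate 1 (0.73). Slc30a7 was not called against T-bet- cDC2s alone (0.49 ± 0.22, adjusted p = 0.17), nor Gng2 against T-bet+ cDC2s alone (0.78 ± 0.24, adjusted p = 0.054). Rala RNA was 264, 189 and 29.1 CPM in cDC1s, 74.6 to 95.6 CPM in T-bet+ and 8.64 to 53.8 CPM in T-bet- cDC2s (1.81 ± 0.65, adjusted p = 0.084), with cDC1 replicate 3 inside the range of the cDC2s. Tmpo (0.94 ± 0.65, edgeR adjusted p = 0.37) and Snd1 (0.49 ± 0.25, adjusted p = 0.22) were not called either. Tmpo RNA was 346, 403 and 53.0 CPM in cDC1s, so its missing call does not show equal RNA. Maml3 was lower in cDC1s, at 0.793 to 1.11 CPM against 3.76 to 10.9 CPM (-2.96 ± 0.37), and it had 14 mirror windows beside its 9 in the set. Chst9 had 0.187 to 0.505 CPM in spleen cDC1s and no read in any spleen cDC2 library, and was too low to be tested.

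The accessibility that remained in the cDC2 subsets is given as a description, since the rule used these same 4 cDC2 libraries to choose the windows. A window was called when its adjusted p was under 0.01 and its log2 difference over 0.5 in either direction, in one edgeR fit of all windows. Of all tested windows 3.92% were higher in T-bet+ cDC2s and 2.36% were lower there than in T-bet- cDC2s. In the set 261 of 14492 windows (1.80%) were higher in T-bet+ and 617 (4.26%) higher in T-bet- cDC2s, and the median log2 difference was -0.19 against -0.01 over all windows. Windows outside the set with a similar highest cDC2 level, 1.32 to 3.66 CPM, were called in 0.915% and 0.850%, with a median of -0.10. The rule caps the highest cDC2 library whatever its subset, so nothing is read from these shares, and scaling by library size alone moved the median of all windows to -0.10.

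At the listed genes 12 of 178 windows of the set (6.74%) were called, 9 of them higher in T-bet- cDC2s, beside 6.06% of the whole set and 6.28% of all tested windows. The rule used the same libraries, so the values below are a description and nothing is read from their directions. In 2 Irf8 windows T-bet- cDC2s held part of the cDC1 accessibility, and chr8:120759956-120760105 had 9.29 and 10.2 CPM in cDC1s, 0.893 and 0.897 CPM in T-bet+ and 2.99 and 4.88 CPM in T-bet- cDC2s (log2 difference of T-bet+ to T-bet- cDC2s -2.05 ± 0.42). In the Etv6 window printed above with an ISRE the values were 17.2 and 17.1 CPM, 1.59 and 3.89 CPM, and 9.94 and 9.57 CPM (-1.75 ± 0.30), and its neighbor behaved alike (-1.66 ± 0.27). Windows at Cadm1 (-2.20 ± 0.58 and -2.05 ± 0.50), Fgd6 (-3.77 ± 1.01), Cd36 (-1.57 ± 0.43) and Xcr1 (-1.31 ± 0.32) were also higher in T-bet- cDC2s. The Fgd6 window held 0 and 1 reads in the T-bet+ and 13 and 3 reads in the T-bet- libraries, so its fitted size depends on the prior count. Windows in Tlr3 (1.92 ± 0.42), Flt3 (1.43 ± 0.39) and Wdfy4 (1.39 ± 0.27) were higher in T-bet+ cDC2s. The Wdfy4 window had 18.8 and 19.5 CPM in cDC1s, 8.53 and 10.1 CPM in T-bet+ and 3.95 and 3.56 CPM in T-bet- cDC2s. With 2 libraries per subset these counts depended on single libraries, and without T-bet- replicate 1, T-bet- replicate 2 and T-bet+ replicate 1 they were 142 and 388, 120 and 354, and 169 and 348.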

How the data were processed

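ATAC-seq of cDC1s and both cDC2 subsets from spleen and RNA-seq of these subsets from spleen and MLN were analyzed from counts. For ATAC-seq, the authors used Bowtie2 2.2.5 for alignment to mm10, kept unique reads (SAMtools 1.9), shifted them for the transposase, called peaks on all replicates together with MACS2 2.1.1.20160309 and deposited raw counts in windows of 150 bases at peak summits. For RNA-seq, the authors aligned reads with HISAT2 2.1.0 and deposited raw counts on GENCODE genes. Whether the counting used strand is not given in the sources used here, so overlapping genes can share reads, and overlapping windows share reads too. Groups and replicates were taken from the labels, which give RFP+ cells as T-bet+. A sentence of the study's methods gives the reverse.

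CPM is the count over the library's total, and RNA levels are TMM-scaled CPM. Features were kept with filterByExpr, normalized by TMM and tested with edgeR 4.0.16 (quasi-likelihood, Benjamini-Hochberg adjustment, subset as the only term) in R 4.3.3, with 1 fit per tissue or assay. SE is the absolute log2 difference over the square root of F. Windows were placed on GENCODE M21 genes, and sequences were read from GRCm38. Tables and figures were made with numpy 2.4.6, pandas 2.3.3 and matplotlib 3.10.9 in Python 3.11.15, and the tests were checked on simulated data.

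The windows, gene lists and elements were chosen with earlier results of these data known. Named were listed genes nearest to a window of the set, the 10 genes with most windows, the 10 windows of largest ratio (0.5 CPM added to both values), the 5 of highest cDC1 level and windows next to the threshold. Printed sequences are windows with an IRF element among those of largest ratio and those at regulator or surface genes. Alternatives were other rules (ratio of 2, 5 CPM, TMM, whole peaks), DESeq2 1.42.0 and its size factors, library size only, no filter, the replicate number as a block, each replicate left out, other gene assignments and thresholds, and, chosen after seeing the data, library class in MLN and the difference between tissues.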

Additional observations from a re-analysis of the deposited data

Results flagged for a closer look

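In 1 fit over the 16 RNA-seq libraries, chosen after seeing the data, the difference between cDC1s and cDC2s was tested for a change between spleen and MLN. It was called for 19 of 16795 genes at an adjusted p under 0.05 (1332 at an unadjusted p under 0.05). Of the 19, 10 were among the 4417 tested genes near windows open in cDC1s. None of the 65 named genes tested was among them, and 14 of these were under 0.05 unadjusted. Values are the log2 difference in spleen minus that in MLN with the SE. Positive values came from Dkk3 (8.69 ± 1.40, 10 windows of the set), Ido1, which encodes a tryptophan-degrading enzyme (6.99 ± 1.12, 6 windows), Adgrl3 (6.66 ± 0.62, 3 windows), Mab21l3 (6.20 ± 1.08, 4 windows), Clec4b2 (5.98 ± 0.86, 6 windows), the lipid antigen-presenting molecule gene Cd1d1 (3.71 ± 0.53, 2 windows), Pde1b (2.997 ± 0.45, 4 windows) and Cd38 (2.92 ± 0.47, 2 windows). Negative values came from Asphd2 (-9.84 ± 1.46, 1 window) and the PD-1 ligand gene Pdcd1lg2 (-4.98 ± 0.57, 2 windows).

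Cd1d1 RNA was 229 to 313 CPM in spleen cDC1s and 58.0 to 108 CPM in spleen cDC2s, but 145 to 203 CPM in MLN cDC1s and 183 to 1358 CPM in MLN cDC2s. Pdcd1lg2 RNA was 1.19 to 3.08 CPM in spleen cDC1s against 31.8 to 40 CPM in spleen cDC2s, and 53.6 to 173 CPM in MLN cDC1s against 48.5 to 95.8 CPM in MLN cDC2s. Cd38 RNA was 110 to 184 CPM in spleen cDC1s and 13.6 to 49.3 CPM in spleen cDC2s, and 30.3 to 48.6 CPM against 14.7 to 149 CPM in MLN. Ido1 RNA was 4.70 to 6.72 CPM in spleen cDC1s and at most 0.473 CPM in spleen cDC2s, and 5.60 to 14.2 CPM against 11.7 to 96.0 CPM in MLN. Dkk3, Mab21l3, Clec4b2 and Ido1 in spleen cDC2s, Asphd2 in all spleen subsets and Adgrl3 in MLN cDC1s were at or near 0 reads (at most 0.739 CPM), so their fitted sizes depend on the prior count. No test for a single outlying library was made in these groups of 2 or 3 libraries.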

How the results depend on the processing

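The set itself went from 14492 windows to 11969 with TMM library sizes, 9933 at a ratio of 2 and 8782 at a floor of 5 CPM, all within it, and leaving out 1 library widened it to between 15379 and 21343. The share with an IRF element was 17.7% at a ratio of 2, 17.1% with TMM and 14.4% after weighting the set to the GC content of all windows. Windows higher in one or the other cDC2 subset (T-bet+ first) numbered 136 and 303 by DESeq2, 490 and 1171 at an adjusted p under 0.05 with no fold limit, and 120 to 245 and 348 to 590 with 1 library left out. The cause of these moves was not tested. For the alternatives between the cDC2 subsets, shares over all windows were not taken, and the rule used the same cDC2 libraries. Nothing is read from those counts.

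Spleen genes near the set that were higher and lower in cDC1s numbered 342 and 91 with promoter windows only and 385 and 232 when called against both cDC2 subsets, and 517 to 962 and 252 to 368 with 1 library left out. In MLN they numbered 579 and 357 by DESeq2, 637 and 393 with no filter on low counts, 175 and 49 with promoter windows only, 96 and 110 when called against both subsets, 153 lower with library class as a term, and 124 to 371 and 106 to 227 with 1 library left out. In each of these alternatives the share higher was larger near the set than over all tested genes. The share lower fell on either side. In spleen it was 9.12% near the set against 6.17% over all tested genes by DESeq2. With no filter these were 8.60% and 5.65%, but 9.02% and 10.6% in the main fit. In MLN they were 7.14% and 5.14% by DESeq2, 7.86% and 5.40% with no filter, and 3.44% and 5.46% with promoter windows only. The number of named genes called against both cDC2 subsets in spleen was 26, and 23 to 29 with 1 library left out.

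Replicate numbers were not used to pair the libraries in the main fits. Same-numbered libraries deviated together by correlations of -0.74 to 0.431 in spleen, -0.137 to 0.657 in MLN and -0.062 to 0.038 in ATAC-seq. The number in the library name differs from the replicate number for MLN T-bet- cDC2s. By that number the MLN correlations were 0.657, 0.62, 0.357, 0.137 and -0.014. Whether it pairs the MLN libraries was not tested. With the replicate number as a block, 548 spleen genes near the set were higher (13.5%, against 6.32% of all tested genes). Another 288 were lower (7.08% against 8.06%). In MLN this block gave 195 higher (4.69% against 1.94%) and 143 lower (3.44% against 3.17%). With the number in the library name, 845 were higher (20.3% against 11.1%) and 496 lower (11.9% against 11.5%). The MLN shares lower were thus close to those over all tested genes. Among windows of the set, the replicate block left 235 higher on the T-bet+ side and 577 on the T-bet- side. Shares over all windows were not taken with this block, so nothing is read from these window counts.

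Of 1337 values of single genes under an alternative, 1223 kept direction and side of the threshold, 79 lost and 18 gained the call, and 17, all of genes not called, changed sign. Nfil3 was 0.0078 with no filter, and with 1 library left out the log2 differences were -0.57 to 0.52 for Nfil3, -0.54 to 0.047 for Bcl6, -0.071 to 0.18 for Etv6, -0.29 to 0.58 for Notch2, -0.22 to 0.14 for Exoc4, -0.13 to 0.46 for Vps13b and -0.20 to 0.52 for Id2 in MLN.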
